A study of Oryza sativa Japonica Group with 9 samples.

Results

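ENR (LOC4345286) is the rice gene for enoyl-ACP reductase, and it was followed over cortical root cells that house an arbuscular mycorrhizal fungus, their fungus-free neighbours and cells of roots without the fungus. The gene was chosen by its measured log2 values, since earlier results of these data showed it higher in arbusculated than in systemic cells. It was 1 of 17905 genes with a probe set of their own, and all probe sets paired with it alone were taken, which came to 1 among 57258 rice probe sets on the array. The reference annotation gave the gene 2 transcripts and 2 proteins. Which of these the probe set matches was not checked, and its values cannot tell them apart.

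Cells were cut by laser from roots of the japonica cultivar Nipponbare harvested at 7 weeks, about 2000 cortical cells per sample. Arbusculated cells (n = 3) held arbuscules of Rhizophagus irregularis in roots inoculated at planting with 250 spores. Systemic cells (n = 3) came from colonised roots too, next to arbusculated cells but without the fungus, and mock cells (n = 3) came from mock-inoculated roots. All plants were fertilised every second day with a Hoagland solution of adjusted phosphate content. Nothing in the labels says that the replicates came from separate plants, so a p-value measures only the spread between these samples, which may be technical. Regions cut from sections may hold more than cortex, and in such samples fewer cells of a type cannot be told apart from less RNA per cell.

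Plants build fatty acids in plastids on acyl carrier protein, by a cycle that lengthens the chain and then reduces it. Acetyl-CoA carboxylase supplies the malonyl units, and enoyl-ACP reductase carries out the last reduction of each cycle, which turns the unsaturated intermediate into a saturated chain ready for the next round. Arbuscular mycorrhizal fungi lack the cytosolic fatty acid synthase of other fungi and depend on lipids from the host. In the legumes in which it was worked out, this supply runs through the plastid pathway, a thioesterase (FatM), an acyltransferase (RAM2) and the ABC transporters STR and STR2 of the membrane around the arbuscule.

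ENR read higher in arbusculated cells than in the other cells. Its deposited log2 values were 10.40, 9.86 and 9.08 in arbusculated replicates 1, 2 and 3. They were 6.16, 6.94 and 6.18 in systemic replicates 1, 2 and 3. They were 7.65, 6.34 and 6.32 in mock replicates 1, 2 and 3. The lowest arbusculated value was above the highest value of either other group, whereas systemic and mock cells overlapped. Of all probe sets, 9.39% were likewise higher without overlap against systemic and 6.64% against mock cells. Mock replicate 1 was the highest of the 6 arrays without arbuscules.

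**Figure D1:**
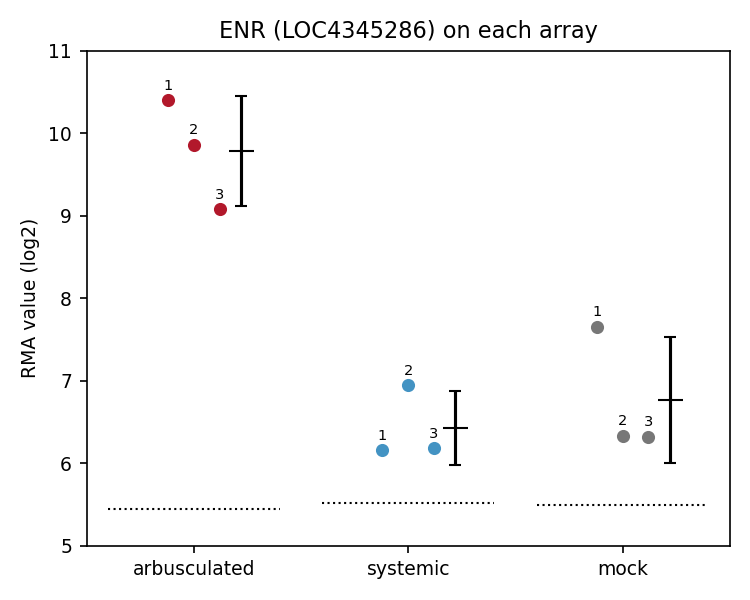
The log2 values of ENR on each array (vertical axis, RMA value) for arbusculated, systemic and mock cells. Numbered points are replicates, black bars are the mean and SD (n = 3), and dotted lines mark the mean of the array medians. The arbusculated arrays lie at 9.08 to 10.40, above all other arrays, which lie at 6.16 to 7.65.

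Arbusculated cells had a mean log2 level of 9.78 ± 0.67 (SD, n = 3). The mean was 6.77 ± 0.76 for mock and 6.43 ± 0.45 for systemic cells. In that order of levels, arbusculated cells stood apart, and mock and systemic cells did not differ beyond their spread.

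Arbusculated against systemic cells is the contrast for which ENR was chosen, so its value is a description without a test. ENR was 10.2-fold higher in arbusculated cells, a log2 difference of 3.35 ± 0.47 (SE, n = 3 per group). In this contrast 0.246% of all probe sets passed an adjusted p of 0.05 in limma, which fits 1 linear model per probe set and pools information on the spread. For size alone, 75 probe sets had a larger difference than ENR in this direction. Over all probe sets the median difference was -0.17, and values are given without removing it.

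Arbusculated against mock cells gave 3.01 ± 0.47 (log2, SE, n = 3 per group), an 8.05-fold higher level that did not pass the test (adjusted p = 0.0675 in limma). The share of probe sets called was 0.187%, and 96 had a larger difference. This contrast uses the same arbusculated arrays as the one that chose ENR and so is not independent of it. Systemic against mock cells asks whether ENR also differs in fungus-free cells of colonised roots. The difference was -0.34 ± 0.47 (adjusted p = 0.969 in limma), and without mock replicate 1 it was 0.10. For this contrast limma called 0 probe sets, with 2485 (4.34%) at an unadjusted p under 0.05.

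The order of ENR within each group followed a measure of RNA quality. On 3' biased arrays, a larger difference between the 3' and the 5' probe sets of control transcripts goes with shorter labelled RNA, and it was averaged over 7 pairs of rice controls. It was 1.25, 0.73 and 0.36 (log2) in arbusculated replicates 1, 2 and 3. It was -0.07, 0.56 and 0.10 in systemic and 0.42, 0.34 and 0.20 in mock replicates 1, 2 and 3. In all 3 groups the arrays stood in the same order by this difference as by ENR, which was noticed after the values were seen, and 0.297% of all probe sets shared that order.

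With the 3' minus 5' difference as a covariate, an alternative chosen after seeing the data, ENR was 2.44 ± 0.44 (log2, SE) higher in arbusculated than in systemic cells. Against mock cells it was 2.29 ± 0.40 higher (adjusted p = 0.216 in limma). Near the same value of the measure, arbusculated replicate 3 (0.36) had an ENR value of 9.08. Mock replicate 1 (0.42) had 7.65, mock replicate 2 (0.34) had 6.34 and systemic replicate 2 (0.56) had 6.94. These arrays were picked after their values were seen, and the part of RNA quality in the ENR difference was not tested beyond the covariate.

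**Figure D2:**
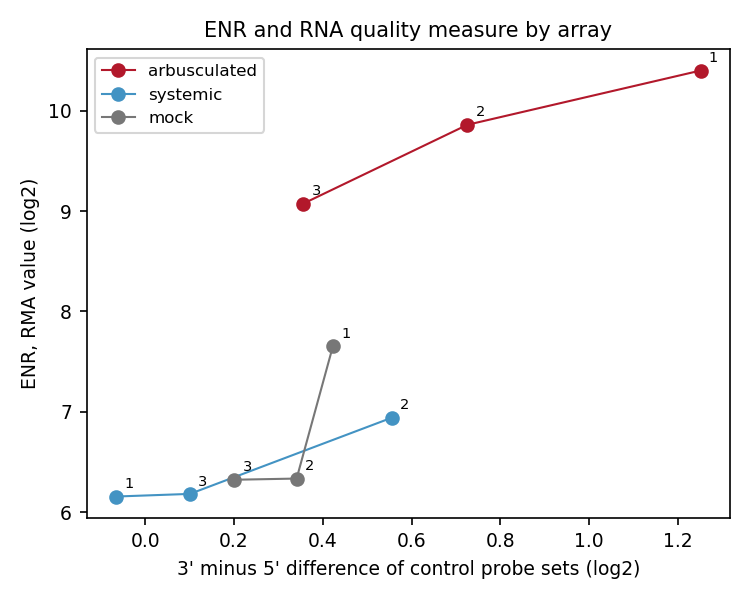
The log2 value of ENR (vertical axis) against the 3' minus 5' difference of control transcripts (horizontal axis, log2) on the 9 arrays. Lines join the arrays of a group and numbers are replicates. Within each group ENR is higher where the difference is larger. Arbusculated replicate 3 at 0.36 lies above mock replicates 1 at 0.42 and 2 at 0.34 and systemic replicate 2 at 0.56. These arrays were picked after their values were seen.

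The markers of the labelled cells were read on the same arrays. PT11 (LOC4324187), through which arbusculated cells take up phosphate from the fungus, had a probe set with a mean log2 value of 8.88 ± 0.57 in arbusculated cells. That probe set, chosen after its values were seen, stood at 4.10 ± 0.48 in systemic and 3.88 ± 0.32 in mock cells. Its values in arbusculated replicates 1, 2 and 3 were 9.43, 8.91 and 8.30, the same order as for ENR. The brightest probe set of PT11 read 5.82, 6.33 and 6.15 in arbusculated, systemic and mock cells. In the same order the remaining ones read 7.19, 5.36 and 5.18, and 4.15, 5.52 and 4.95, so the probe sets of this gene disagreed. AMT3;1 (LOC4324937), an ammonium transporter of mycorrhizal roots, had means of 7.97 in arbusculated, 7.11 in systemic and 6.96 in mock cells by its brightest probe set. Its other probe set read 5.44, 5.42 and 5.58.

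Markers of other root cells and of green tissue were read as mean levels over each list. Secondary wall cellulose synthases of xylem and sclerenchyma (3 of 3 listed genes measured) had a mean log2 level of 6.27 to 6.60 on arbusculated, 6.07 to 6.89 on systemic and 7.06 to 8.01 on mock arrays. Endodermis markers (3 of 4) ranged from 5.44 to 6.51, 5.23 to 5.47 and 4.81 to 5.71. Within that list CASP1, by its brightest probe set, was 7.55 in arbusculated replicate 1 and 7.02 in mock replicate 1. On these arrays ENR was highest in their groups. CASP1 was picked after its values were seen. Among deviations from the group means its correlation with ENR was 0.85, against 0.01 for SHR1 and 0.19 for SCR1. Other probe sets of CASP1 had means of 2.94 and 3.18 in arbusculated, 3.76 and 3.68 in systemic and 3.40 and 3.58 in mock cells. Green tissue markers (2 of 3) ranged from 6.98 to 8.27 on arbusculated, 7.59 to 10.51 on systemic and 6.79 to 7.16 on mock arrays. The part of these cell types in the ENR values was not tested.

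The other genes of plastid fatty acid synthesis ask whether ENR moved alone. The list was matched by gene name in the reference tables, which held 4 of its genes, all with a probe set: ENR itself, a further gene with the synonym ENR, ACC2 and SSI2. The other enzymes of the cycle, acyl carrier protein and thioesterases were not among them, so most of the pathway was not read. Without ENR, 0 of 3 rose and 0 of 3 fell in any contrast in limma, and 1, 1 and 0 of them had an unadjusted p under 0.05 in arbusculated against systemic, arbusculated against mock and systemic against mock cells. Over all probe sets that p was met by 23.9%, 14.2% and 4.34%. Against systemic cells 3 of 3 were higher with a median difference of 0.62, where the median of all genes was 0.30. Against mock cells 3 of 3 were higher with a median of 0.52, where that of all genes was 0.21. With medians above 0, most of all genes were higher in both contrasts too.

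ACC2 (LOC4338322), an acetyl-CoA carboxylase, had log2 values of 11.19, 11.19 and 10.67 in arbusculated replicates 1, 2 and 3. It read 5.13, 8.46 and 9.04 in systemic and 7.88, 7.59 and 7.24 in mock replicates 1, 2 and 3. The arbusculated arrays overlapped with neither other group, as in 9.39% of all probe sets against systemic and 6.64% against mock cells in that direction. These shares, like those beside other genes, are over all probe sets, whose median differences were -0.17 against systemic and -0.12 against mock cells. Over genes by their brightest probe set the medians were 0.30 and 0.21, and the share over genes was not computed. Systemic cells were spread widely, with replicate 1 far below the other two.

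ACC2 was 3.48 ± 0.87 (log2, SE) higher in arbusculated than in systemic cells, an 11.1-fold difference that did not pass the test (adjusted p = 0.122 in limma). Against mock cells it was 3.45 ± 0.87 higher (adjusted p = 0.238 in limma). Without systemic replicate 1 the mock difference was still 3.45 with an SE of 0.28 and passed (adjusted p = 0.0129 in limma). With only the 6 arrays of arbusculated and mock cells it passed too (adjusted p = 0.028 in limma). These were the only 2 of 18 alternatives in which the mock difference passed. In the others its adjusted p in limma was up to 0.475. Without that systemic array the difference from systemic cells was 2.27, and it did not pass in any alternative.

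The second gene with the synonym ENR (LOC4346596) did not pass the test in any contrast. Its log2 values were 5.73, 4.59 and 4.55 in arbusculated, 4.55, 3.92 and 4.55 in systemic and 4.55, 4.36 and 4.55 in mock replicates. The same value, 4.5486 to 4 decimals, recurred on 5 arrays. It was 0.62 ± 0.35 higher in arbusculated than in systemic cells (adjusted p = 0.29 in limma) and 0.47 ± 0.35 higher than in mock cells (adjusted p = 0.503). Its highest value, like that of ENR, was on arbusculated replicate 1. All its other values lay below the array medians, which were 5.42 to 5.54. A missing call at such low levels says little about a difference.

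SSI2 (LOC4327738), a stearoyl-ACP desaturase that introduces the first double bond into the finished chain, did not pass the test either. Its values were 5.24, 3.72 and 5.59 in arbusculated, 3.81, 4.52 and 4.37 in systemic and 3.41, 5.37 and 4.23 in mock replicates, so all groups overlapped. The differences were 0.62 ± 0.60 against systemic (adjusted p = 0.526 in limma) and 0.52 ± 0.60 against mock cells (adjusted p = 0.67). Its means of 4.85 in arbusculated, 4.23 in systemic and 4.33 in mock cells also lay below the array medians.

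**Figure D3:**
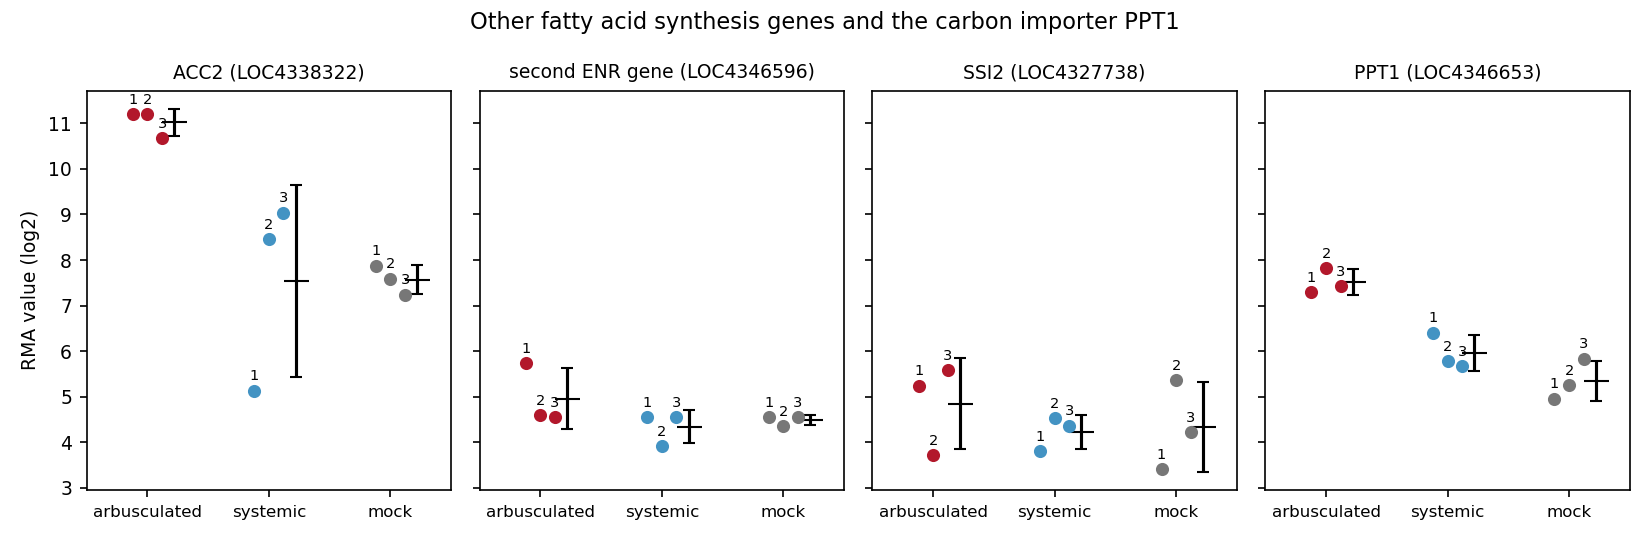
Log2 values (vertical axis, RMA value) on each array of ACC2, the second ENR gene, SSI2 and PPT1 in arbusculated, systemic and mock cells, with replicate numbers and the mean and SD (n = 3) in black. The arbusculated arrays of ACC2 lie at 10.67 to 11.19 and those of PPT1 at 7.29 to 7.83, above all other arrays, while the groups of the second ENR gene and SSI2 overlap.

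Fatty acid synthesis draws on carbon that enters the plastid as phosphoenolpyruvate or triose phosphate and is turned into acetyl-CoA. The list of carbon import and pyruvate genes, matched by name, had 11 measured members. Among them were subunits of pyruvate dehydrogenase and kinases that are not all in the plastid. Whether any of these, or the enolase of the list, is in the plastid was not checked. In arbusculated against mock cells 1 of 11 rose and 0 fell, where 0.178% of all probe sets rose. Of the 11, 9 were higher with a median of 0.64, against 0.21 over all genes, most of which were higher too. In arbusculated against systemic cells 0 of 11 passed. There 10 were higher with a median of 0.72, against 0.30 over all genes, most of which were higher too. An unadjusted p under 0.05 was met by 3 of the 11 in that contrast, a share near the 23.9% of all probe sets. In systemic against mock cells 0 of 11 passed, with none at an unadjusted p under 0.05, and the median was -0.04.

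The member that rose was PPT1 (LOC4346653), a translocator that brings phosphoenolpyruvate into plastids. Its log2 values were 7.29, 7.83 and 7.43 in arbusculated, 6.40, 5.79 and 5.67 in systemic and 4.96, 5.25 and 5.83 in mock replicates. The arbusculated arrays did not overlap with either other group, as in 9.39% of all probe sets against systemic and 6.64% against mock cells in that direction. It rose 4.50-fold over mock cells, by 2.17 ± 0.31 (log2, SE, adjusted p = 0.0445 in limma), and the call was lost with any 1 of the 9 arrays left out (adjusted p from 0.0604 to 0.156). Over systemic cells it was 1.56 ± 0.31 higher (adjusted p = 0.093).

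None of its relatives or of the other genes of the carbon import and pyruvate list passed the test. PPT2 (LOC4345334) was 0.92 ± 0.51 higher in arbusculated than in systemic cells and 0.62 ± 0.51 higher than in mock cells. PPT3 (LOC4327644) was 0.90 ± 0.42 and 0.11 ± 0.42 higher. ENO1 (LOC4348176), an enolase that makes phosphoenolpyruvate, read 11.36, 10.69 and 11.20 in arbusculated cells by its brightest probe set, chosen after its values were seen. It was 1.19 ± 0.42 higher than in systemic (adjusted p = 0.161 in limma) and 1.34 ± 0.42 higher than in mock cells (adjusted p = 0.296), and 0.37 in each contrast when its 3 probe sets were averaged. A pyruvate dehydrogenase E1 alpha gene (LOC4330673) was 1.64 ± 0.70 higher than in systemic cells (adjusted p = 0.203) and 0.64 ± 0.70 higher than in mock cells, also chosen after its values were seen. The kinases PK1 (LOC4349774) and PK2 (LOC4351493) differed by 0.35 and -0.11 from systemic cells.

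**Figure D4:**
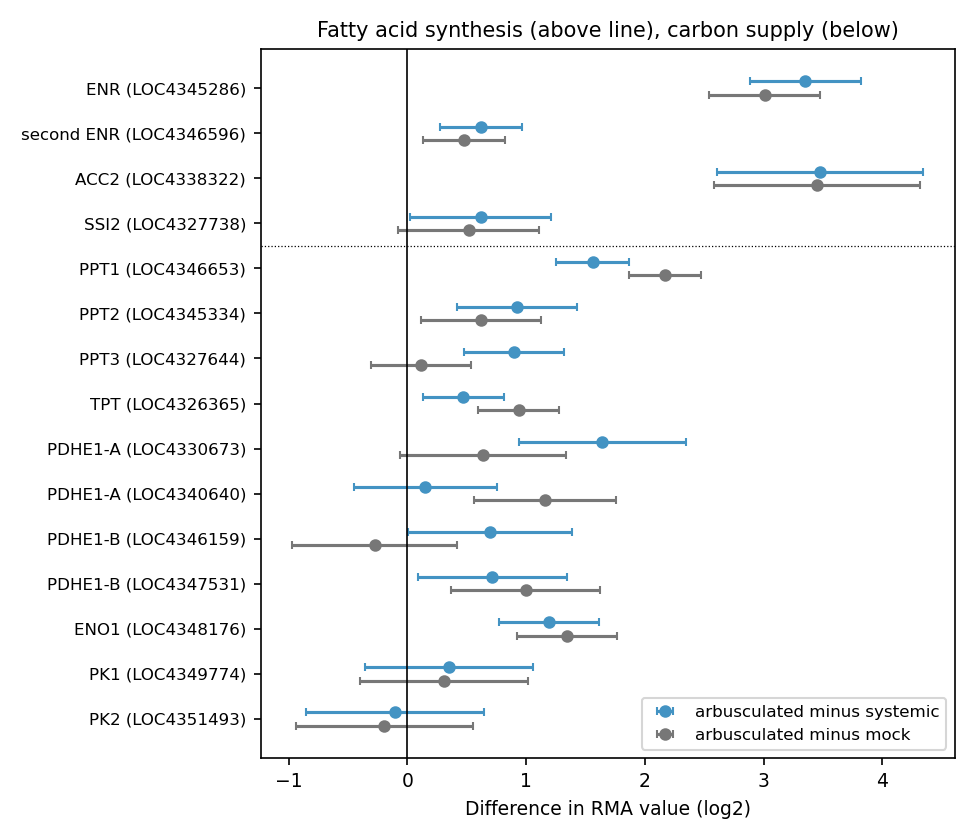
Differences in log2 RMA value (horizontal axis) with their SE (bars) between arbusculated and systemic cells (blue) and arbusculated and mock cells (grey). The genes are those matched by name and measured, of plastid fatty acid synthesis (above the dotted line) and of carbon import and pyruvate metabolism (below). ENR at 3.35 and 3.01 and ACC2 at 3.48 and 3.45 lie to the right of the other genes.

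Later steps of lipid synthesis were thinly covered. DGAT1-1 (LOC4338045), an acyltransferase that makes storage lipid, was 0.42 ± 0.41 higher in arbusculated than in systemic cells (adjusted p = 0.523 in limma) and 0.38 ± 0.41 higher than in mock cells (adjusted p = 0.642). KCS20 (LOC4348632), of the ketoacyl-CoA synthase family that extends very long chains, differed by 0.06 ± 0.36 and 0.05 ± 0.36 (adjusted p of 0.931 and 0.951 in limma). Its group means of 3.74 to 3.80 lay below the array medians. The list of arbuscule lipid supply, with FatM, RAM1, RAM2, STR1, STR2 and WRI factors, and that of the FAD desaturases could not be matched to the reference tables by name and were not analysed here.

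The genes whose pattern was most like that of ENR were ranked by Pearson correlation over the 9 arrays, among 2458 genes with an informative name. These points share their arrays and the step between arbusculated and other cells, so the correlations are a description. The median correlation over these genes was 0.22, and 9 had one above 0.9. The highest was that of YSL13 (LOC4336441), of a family that moves chelated metals, at 0.985. Its log2 values were 6.38, 6.10 and 5.41 in arbusculated, 3.73, 3.62 and 3.55 in systemic and 4.22, 3.57 and 3.74 in mock replicates, so that mock replicate 1 was again the highest array without arbuscules.

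The next were RF2a (LOC4347578), a bZIP transcription factor, at 0.942, CCD7 (LOC4336591), a carotenoid cleavage dioxygenase of strigolactone synthesis, at 0.934 and ILL8 (LOC4342839), a hydrolase of auxin conjugates, at 0.925. PP2C39, a protein phosphatase, followed at 0.925, CSLH1, a cellulose synthase-like gene, at 0.918 and Melibiase, an alpha-galactosidase, at 0.912. ABCG45, an ABC transporter, and BZR3, of the brassinosteroid response factor family, stood at 0.902 each and MPK8, a MAP kinase, at 0.898. BZR3 read 2.03 to 2.47 on the arrays without arbuscules, not far above the lowest value on each array (1.52 to 1.77). BZR3 and ABCG45 lay below the array medians (5.42 to 5.54) on all 9 arrays. YSL13, ILL8, PP2C39 and CSLH1 lay below them on the arrays without arbuscules. The brightest probe set of MPK8 carries the suffix for cross-hybridising probes. When the probe sets of MPK8 were averaged, its difference from systemic cells fell from 1.91 to 0.80 and that from mock cells from 1.51 to 0.05.

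Likeness in the step between groups and likeness among replicates were not the same. When each array was expressed as its deviation from the group mean, the correlation with ENR was 0.85 for YSL13, 0.89 for Melibiase and 0.72 for PP2C39. It was -0.19 for ILL8 and -0.05 for MPK8. Only Melibiase among these 10 genes shared the order of the 3' minus 5' difference in all 3 groups with ENR. Of the fatty acid synthesis genes, ACC2 had a correlation of 0.86 with ENR over the arrays and 0.32 among deviations, the second ENR gene 0.63 and 0.29, and SSI2 0.22 and -0.42. PPT1 had 0.78 over the arrays and -0.49 among deviations.

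**Figure D5:**
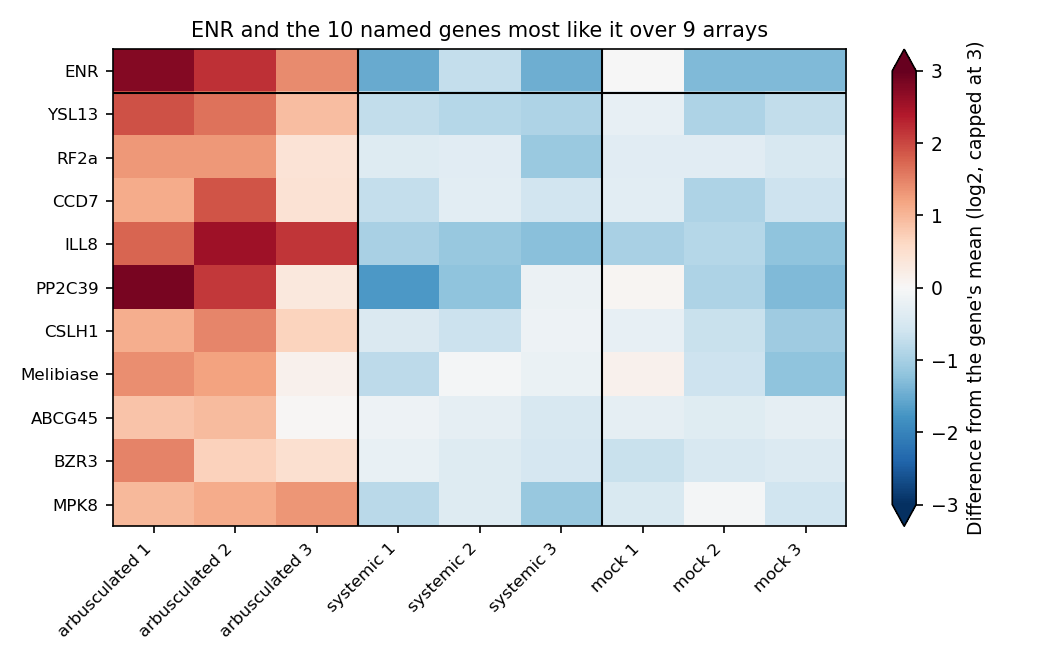
Log2 values of ENR and the 10 named genes most correlated with it, each as the difference from the gene's own mean (colour, capped at 3), on the 9 arrays (columns, grouped as arbusculated, systemic and mock). By their brightest probe sets all genes are higher on arbusculated arrays, and all but ILL8 and MPK8 have their lowest arbusculated value on replicate 3.

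The neighbours of ENR on the chromosome were read to see whether the surrounding genes differed as ENR did. Of the 3 nearest genes with a probe set on either side, none passed in any contrast in limma, and 1, 1 and 0 had an unadjusted p under 0.05 in arbusculated against systemic (LOC4345288), arbusculated against mock (LOC4345285) and systemic against mock cells, where 23.9%, 14.2% and 4.34% of all probe sets did. LOC4345288 was 0.90 ± 0.31 higher in arbusculated than in systemic cells (adjusted p = 0.155) and 0.64 ± 0.31 higher than in mock cells (adjusted p = 0.372). Its groups did not overlap in either contrast, as in 9.39% and 6.64% of all probe sets in that direction. The nearest of them, LOC4345285 and LOC4345287, differed by -0.20 and -0.31 from systemic and by -0.80 and -0.25 from mock cells. For LOC4345287 the arbusculated arrays lay below all systemic arrays, as in 22.7% of probe sets. Its values over the 9 arrays were 1.81 to 2.62, near the lowest value of any probe set on each array (1.52 to 1.77). The other neighbours differed from systemic cells by -0.67 to 0.62.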

How the data were processed

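RNA of laser-captured rice root cells was measured on 9 single-colour arrays. The authors deposited log2 values made with RMA, per the submitters' processing notes, which corrects background, normalises quantiles and summarises probes. No version of RMA was named. The table held 57381 probe sets, and 123 of them, which are controls of the array, were removed. The platform annotation, with names updated through a RefSeq gene table of assembly ASM3414082v1, paired 22436 of the remaining 57258 with 1 gene, 95 with several and 34727 with none.

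Differences were estimated by limma 3.58.1 (R 4.3.3), with all 9 arrays in 1 model of 3 group means, with two-sided tests and Benjamini-Hochberg adjustment over all probe sets at 0.05. The code was tested on simulated data. A gene was represented by its brightest probe set. The genes named were all measured ones of the fatty acid synthesis list, those past the threshold (or the largest) of other lists, the 10 most like ENR and 3 neighbours on either side. The members and lists were chosen with earlier results of these data known. The small number of arrays limits the precision. Alternatives were variance moderation, scaling, filters, weights, a replicate block, averaged probe sets, fewer arrays and, added after seeing the data, an RNA quality covariate. Protein and promoter sequences were not used here.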

Additional observations from a re-analysis of the deposited data

How the results depend on the processing

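ENR was higher in arbusculated than in both other groups in each of 18 alternatives, by 2.44 to 3.52 against systemic cells outside those that leave out an array and by 3.04 to 3.70 (log2) with 1 array left out. The value of 2.44 came with the 3' minus 5' covariate. Against mock cells the range with 1 array left out was 2.70 to 3.45, and ENR passed with array weights at 3.33 (adjusted p = 0.0326 in limma) and in the fit to gene averages at 3.01 (adjusted p = 0.0412), where fewer features are tested. Between systemic and mock cells the difference ran from -0.60 to 0.10 with 1 array left out. Same-numbered replicates did not deviate together (correlations from -0.285 to 0.0388), and the replicate block gave 3.01 against mock (adjusted p = 0.112).

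The number of probe sets called between arbusculated and systemic cells was 141, and it was 92 with trend and robust fitting, 11 with 6 arrays, 14 with the replicate block, 5 with the covariate and 25 (without arbusculated 1) to 126 with 1 array left out. Over all 17 alternatives this number ran from 5 to 211, and the highest count came without leaving out an array. Between arbusculated and mock cells it was 107, and 44 with 6 arrays, 67 among brighter probe sets, 32 with the replicate block, 12 with the covariate and 20 (without mock 1) to 169 (without mock 2) with 1 array left out. Between systemic and mock cells it was 0, and 0 to 3 with 1 array left out. The count of carbon genes that rose over mock, 1, was 0 with array weights, quantile normalisation, 6 arrays, the replicate block, the covariate or any 1 array left out. The count of fatty acid synthesis genes besides ENR, 0, was 1 with 6 arrays and 0 to 1 with 1 array left out, the 1 being ACC2 without systemic 1. The sign turned for DGAT1-1 against mock (-0.020 without mock 2, up to 0.73 without mock 3) and for KCS20 (-0.24 and -0.15 with array weights, -0.34 and -0.33 without arbusculated 2 against 0.35 each without arbusculated 1, -0.18 without mock 2 and -0.012 without systemic 2). The causes were not tested.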
